A study of Mus musculus with 56 samples.

Results

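The genes described here supply NADPH or carry carbon through the pentose phosphate pathway in mouse visceral adipose tissue (VAT). They are 9 genes of the 25939 in the table of VAT expression, found by matching Ensembl identifiers to gene symbols: G6pdx, Pgls, Pgd, Rpia, Tkt, Taldo1, Me1, Idh1 and Slc25a1. All 9 were measured in all 56 libraries, and none was lost to a filter on low values. The animals were 56 female C57BL/6J mice, 9 weeks old, kept on 12 h light and 12 h dark. They were fed by day only (daytime-restricted feeding, DRF) or by night only (nighttime-restricted feeding, NRF, the reference) for 7 days, having entered the study at 7 weeks of age. VAT was taken from 4 mice per regimen at zeitgeber time (ZT, hours after lights on) 0, 4, 8, 12, 16, 20 and 24, which gives 14 groups. Each mouse gave 1 library, so no mouse was followed over time, and the tests compare mice. No transgene, drug or special diet is named in the labels for any group, and the clock hours at which food was given are not used here.

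NADPH is the reducing agent that cells spend on making fatty acids and cholesterol and on recycling glutathione and thioredoxin. The oxidative branch of the pentose phosphate pathway makes it in the steps run by G6pdx (glucose-6-phosphate dehydrogenase) and Pgd (6-phosphogluconate dehydrogenase), with Pgls (6-phosphogluconolactonase) between them. Rpia (ribose-5-phosphate isomerase), Tkt (transketolase) and Taldo1 (transaldolase) interconvert the sugar phosphates that follow and return them to glycolysis or send them to nucleotides. In the cytosol, Me1 (malic enzyme) makes NADPH while turning malate into pyruvate and Idh1 (isocitrate dehydrogenase) makes it from isocitrate. Slc25a1 is the carrier that exports citrate from mitochondria, the start of the route that brings acetyl groups to fatty acid synthesis and malate to Me1. White adipocytes that make fatty acids from glucose are known for high expression of this set.

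The promoters of 4 of these genes are shown because their genes took different courses. Me1, Slc25a1 and Taldo1 were higher under DRF, and Rpia was rhythmic under both regimens with its peak at another time. Each line gives the strand of the gene, 5′ to 3′, upstream of the first annotated start (RefSeq sequence, GRCm38.p6), in lower case. Capitals mark matches, on either strand, to the Sp1 box GGGCGG, the CCAAT box CCAAT, the E-box CACGTG, the antioxidant response element core TGANNNNGC, the TATA box TATAAA and the sterol regulatory element TCACNCCAC.

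Me1, chr9:86695954-86696164, minus strand: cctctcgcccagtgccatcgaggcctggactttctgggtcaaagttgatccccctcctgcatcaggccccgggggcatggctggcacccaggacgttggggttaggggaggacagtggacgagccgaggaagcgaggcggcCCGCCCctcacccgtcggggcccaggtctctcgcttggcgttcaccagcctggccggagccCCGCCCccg

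Slc25a1, chr16:17928220-17928469, minus strand: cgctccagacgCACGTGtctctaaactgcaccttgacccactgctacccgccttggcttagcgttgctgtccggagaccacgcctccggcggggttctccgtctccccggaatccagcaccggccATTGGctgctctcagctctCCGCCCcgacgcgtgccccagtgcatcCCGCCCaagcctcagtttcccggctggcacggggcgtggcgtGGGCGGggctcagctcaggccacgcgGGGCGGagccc

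Taldo1, chr7:141391910-141392159, plus strand: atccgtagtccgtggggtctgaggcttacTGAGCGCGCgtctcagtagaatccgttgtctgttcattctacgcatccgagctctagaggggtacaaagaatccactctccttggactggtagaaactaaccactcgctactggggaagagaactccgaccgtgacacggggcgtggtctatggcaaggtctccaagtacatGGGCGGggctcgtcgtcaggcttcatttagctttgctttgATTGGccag

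Rpia, chr6:70792233-70792425, minus strand: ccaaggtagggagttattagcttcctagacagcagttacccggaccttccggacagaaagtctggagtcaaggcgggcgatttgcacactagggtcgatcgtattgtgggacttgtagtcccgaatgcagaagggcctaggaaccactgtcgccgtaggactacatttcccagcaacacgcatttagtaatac

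All 9 genes matched the RefSeq table, with 12 windows of 250 bases before and 50 bases after a start between them. In these full windows, the Sp1 box was found in 10 of the 12, against 35.7% of all 32851 windows. The antioxidant response element core was found in 6 of 12, of 6 different genes (G6pdx, Idh1, Me1, Pgd, Taldo1 and Tkt), against 41.3% of all windows. In Me1 it reads TGACTCAGC and spans the start itself, from base -6 to base 2 with the start counted as 0. The CCAAT box was in 5 of 12, against 37.4%. The E-box was in the Slc25a1 window alone, against 7.15% of all windows. No window of the 9 genes held the TATA box or the sterol regulatory element in these letters, against 13.6% and 1.24% of all windows. The Me1 match and the Rpia Sp1 box lie downstream of the printed stretches, so the Rpia line has no capitals. These matches are descriptions of the sequence, and no binding was measured.

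Depth and tissue make-up set the frame for every value below. Libraries held 31755179 to 41963739 reads on genes (medians 36482714 for NRF and 35734502 for DRF). Levels are given as CPM (read counts scaled to a common library size), or as TPM where they are also scaled by the joint length of a gene's annotated exons. Differences and fitted waves are on the log2(CPM + 1) scale. Adipocyte markers were abundant, with a summed level of 48863 to 90389 TPM under NRF and 26292 to 57392 TPM under DRF. The most abundant of them, Cfd (mean 30052 TPM), differed by -1.37 ± 0.14 (SE, DRF minus NRF). Of the 9 adipocyte markers, 2 (Cfd and Adipoq) were lower under DRF and 1 (Lep) was higher. All 5 red cell markers were higher under DRF, with a summed level of 1119 TPM (median) under NRF and 1847 TPM under DRF. Markers of macrophages, mesothelium and adipose progenitors were lower under DRF for 3 of 5, 3 of 5 and 3 of 4 genes. The part of these shifts in the results was not tested, and in bulk tissue fewer cells of a type and less RNA per cell cannot be told apart. The libraries of DRF replicate 4 at ZT0 and DRF replicate 1 at ZT8 stood apart, with summed epithelial markers of 2644 and 1333 TPM against at most 213 TPM elsewhere. NRF replicate 4 at ZT24 had 2541 TPM of liver markers against at most 99.4 TPM elsewhere. Calls among the 9 genes that changed when these libraries were left out are given with the genes concerned or with the comparisons by time point and of rhythm.

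Per length of annotated exons, Me1 was the most abundant of the set. Its level was 3781 ± 1692 TPM (SD, n = 56, computed from recovered reads), and it ranged from 222 to 6852 TPM between libraries. Slc25a1 followed with 2726 ± 1015 TPM, then Tkt with 1547 ± 478 TPM and Taldo1 with 1151 ± 241 TPM. Me1 lay above Slc25a1 in 48 of 56 libraries and Tkt above Taldo1 in 50 of 56, so these neighbours swapped places in some mice, while Slc25a1 was above Tkt in all 56. Over both regimens, Pgd (535 ± 205 TPM), G6pdx (493 ± 131 TPM) and Idh1 (493 ± 85.9 TPM) did not differ beyond their spread, with Pgd above G6pdx in 34 of 56 libraries. The means of G6pdx and Idh1 changed order between the regimens, with 407 and 488 TPM under NRF and 579 and 497 TPM under DRF. Pgls (73.0 ± 6.19 TPM) and Rpia (27.3 ± 11.9 TPM) were the lowest, and each was below its upper neighbour in all 56. The order depends on the length used, which joins all annotated exons of a gene. It was 7355 bases for Tkt and 2164 for Slc25a1, and 6447 for Pgd and 2171 for Taldo1. In mean CPM, Me1 was still the highest (4697), but Tkt (3663) lay above Slc25a1 (1902) and Pgd (1109) above Taldo1 (805). 

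**Figure D1:**
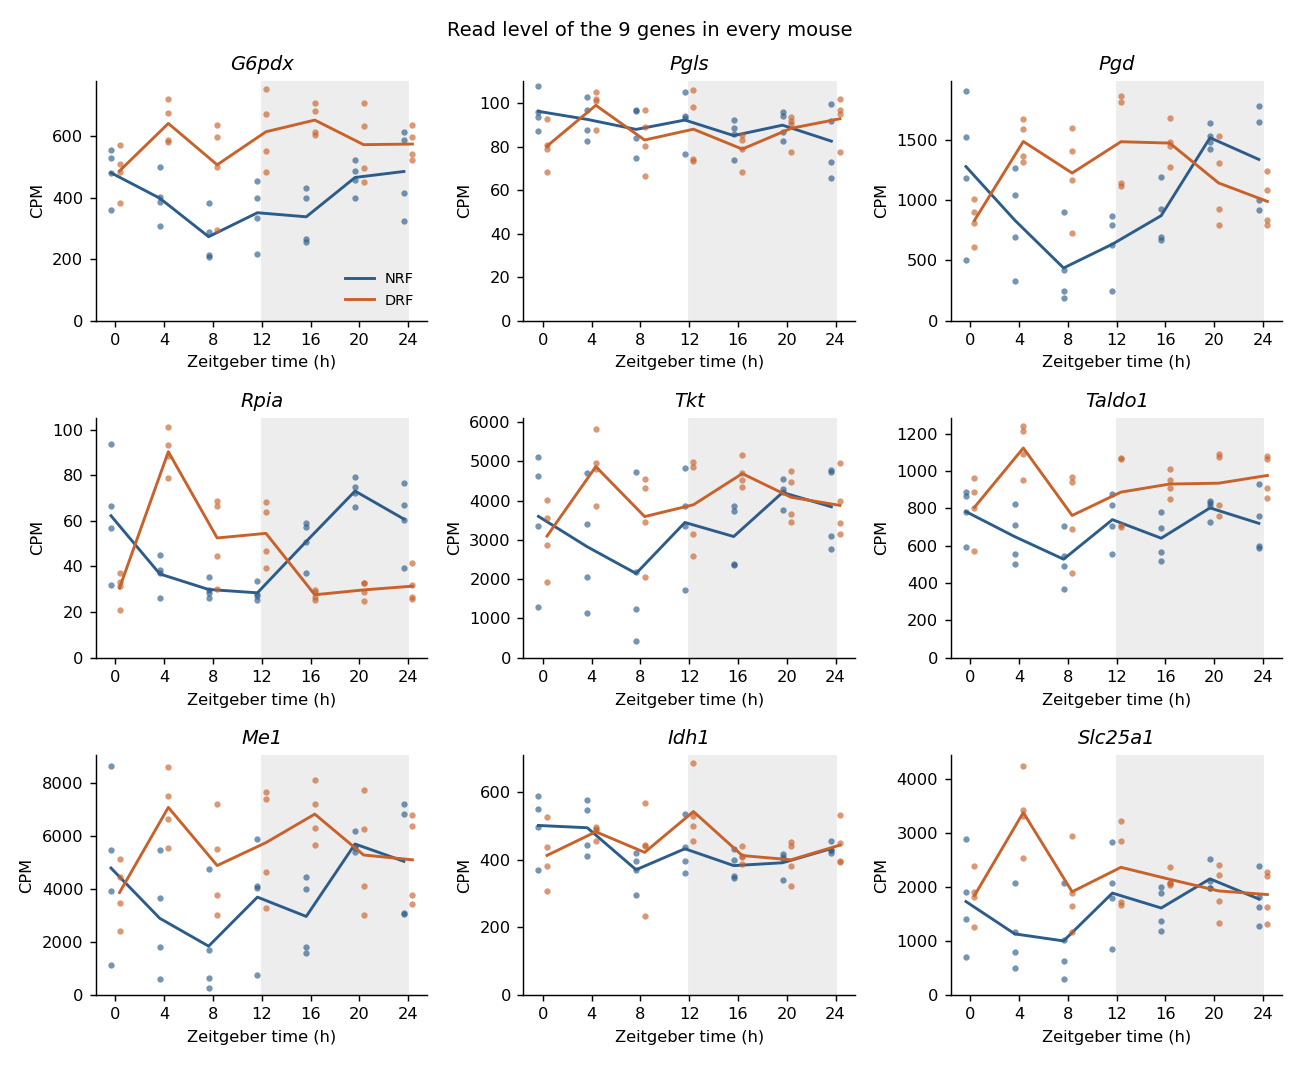
Level in CPM (vertical axis, starting at 0) against zeitgeber time (h) for each of the 9 genes. Points are single mice, 4 per regimen and time, lines join group means, blue is NRF, orange is DRF and grey is the dark phase. Rpia peaks at ZT4 under DRF and at ZT20 under NRF, and for G6pdx, Pgd, Me1 and Slc25a1 the NRF means are lowest at ZT8.

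The first comparison asked whether the mean level over the day differed between the regimens. It was higher under DRF for 6 of the 9 genes and lower for none: Me1 rose 1.91-fold, Pgd 1.55-fold, G6pdx 1.54-fold, Slc25a1 1.5-fold, Tkt 1.37-fold and Taldo1 1.33-fold. Across all 25938 genes tested, 21.7% were called in the same test (limma, Benjamini-Hochberg adjusted p under 0.05), 11.4% as higher and 10.3% as lower under DRF. Among the 14303 genes with a mean of at least 1 CPM, 33.5% were called. The median difference of the 9 genes was 0.46 on the log2(CPM + 1) scale, against 0.00 for those 14303 genes. Idh1 (0.07 ± 0.07 SE, adjusted p = 0.54), Pgls (-0.05 ± 0.05 SE, adjusted p = 0.582) and Rpia (-0.06 ± 0.10 SE, adjusted p = 0.766) did not pass the test. The Tkt call was the weakest, and it missed the threshold when any 1 replicate number was left out (adjusted p = 0.0994 to 0.203) when the ZT24 libraries were left out (adjusted p = 0.0795) and with plain library totals (adjusted p = 0.0535).

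The second comparison asked which genes had a 24-h rhythm under each regimen. Under NRF, 3 of the 9 passed the combined test of JTK_CYCLE and Lomb-Scargle (Pgd, Rpia and G6pdx), where 25.5% of all genes and 41.2% of genes with at least 1 CPM passed. Under DRF 1 of the 9 passed (Rpia), where 14.7% of all genes and 23.8% of those with at least 1 CPM passed. These shares lie near the background. Among the cell-type markers, 5 of 9 adipocyte markers passed under NRF and 6 under DRF. Of the 5 red cell markers, 4 passed under NRF and 0 under DRF. The summed adipocyte level was highest at ZT8 under NRF (mean log2 TPM of 16.3). The part of these markers in the rhythms was not tested. Over all 9 genes, called or not, the fitted waves (24-h cosines) under NRF had a median peak to trough difference of 1.12 (log2), against 0.33 for genes with at least 1 CPM. That median is the value of Tkt, which did not pass the combined test, so it is not read as a rhythm of the set. Under DRF the median was 0.21 against 0.29. No difference in wave size between the regimens was called for the 9 genes by the Wald test of the CircaCompare model (0 of 9, against 1.44% of all genes), and 3 of 9 had an unadjusted p under 0.05, as did 11.3% of all genes. The lowest was 0.0032, for Pgd. The limma F test of a cosine and sine, a different test of the same rhythm, called 6 of 9 under NRF, adding Me1 (adjusted p = 0.00572), Slc25a1 (adjusted p = 0.0103) and Tkt (adjusted p = 0.0345), and 1 of 9 under DRF. It also called more of all genes, 33.7% under NRF and 26.7% under DRF.

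**Figure D2:**
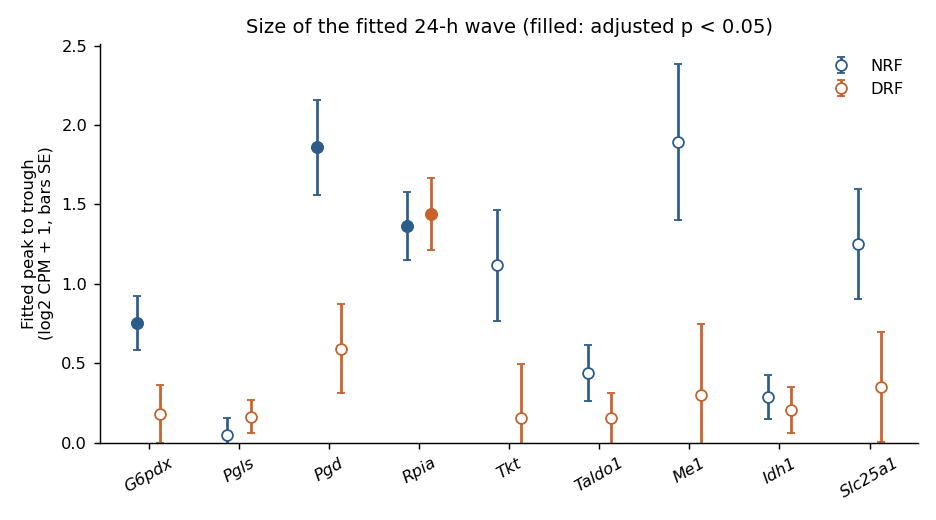
Fitted peak to trough difference on the log2(CPM + 1) scale for each gene under NRF (blue) and DRF (orange), with the standard error of the fit. Filled points passed the rhythm test: Pgd, Rpia and G6pdx under NRF and Rpia under DRF, with waves of 1.37 under NRF and 1.44 under DRF for Rpia.

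G6pdx, the entry enzyme of the oxidative branch (ENSMUSG00000031400, chromosome X, 74409483 to 74429194 on GRCm38), was the gene with the lowest adjusted p for the mean level. At ZT16 its levels were 682, 603, 615 and 709 CPM under DRF and 256, 432, 264 and 398 CPM under NRF. All DRF mice were above all NRF mice, by 0.98 ± 0.22 (SE, log2; limma adjusted p = 0.00245). At ZT8 the DRF levels were 293, 499, 637 and 598 CPM and the NRF levels 289, 206, 382 and 214 CPM, and here the lowest DRF mouse fell within the NRF range. At ZT0, 572, 509, 483 and 383 CPM under DRF and 360, 529, 479 and 555 CPM under NRF overlapped (difference 0.02 ± 0.22 SE). The ZT8 call was lost without replicate 2 or 4 (adjusted p = 0.0799 and 0.117), the ZT4 call without replicate 2, 3 or 4 (0.0617, 0.172 and 0.139) and the ZT12 call without replicate 1 (0.104). The DRF mean was the higher at all 7 time points, though at ZT0 the sign turned without replicate 1 (-0.19), and the mean over the day differed by 0.63 ± 0.09 (SE, limma adjusted p = 3.6e-07). Under NRF the wave had a peak to trough difference of 0.75 ± 0.17 (SE) with its peak at 22.3 ± 0.94 h (SE), and it passed the rhythm test (adjusted p = 0.0304). Leaving out replicate 1, 2 or 4 ended that call (adjusted p = 0.162, 0.266 and 0.607), as did leaving out the ZT24 libraries (0.0676) or the NRF library with liver markers (0.0647) and testing the deposited values (0.0583). Exons of G6pdx share 418 of 3080 bases with Ikbkg on the opposite strand, which had a mean of 46.5 CPM against 488 CPM for G6pdx. Reads of G6pdx could also be shared with its near-identical retrogene copy G6pd2, which is not analysed here, so this level is uncertain to that extent.

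Pgls, the lactonase of the middle step, stayed level. Its group means ran from 82.5 to 96.3 CPM under NRF and from 78.8 to 99.1 CPM under DRF, and no test of it passed. Its fitted peak to trough difference was 0.05 ± 0.11 (SE) under NRF and 0.16 ± 0.10 (SE) under DRF. A stretch of 776 of its 3770 exon bases is shared with Fam129c on the same strand, which had a mean of 1.09 CPM.

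Pgd, the second NADPH-making enzyme of the branch (ENSMUSG00000028961, chromosome 4, 149149991 to 149166771), had the clearest wave of the NADPH makers under NRF. At its NRF low, ZT8, the mice had 417, 185, 899 and 242 CPM, and at its high, ZT20, they had 1531, 1480, 1635 and 1420 CPM. Every ZT20 mouse was above every ZT8 mouse. The fitted peak to trough difference was 1.86 ± 0.30 (SE), a 3.63-fold wave with a peak at 21 ± 0.61 h (adjusted p = 0.00147). Under DRF the same 2 time points gave 724, 1167, 1406 and 1597 CPM at ZT8 and 928, 1310, 1531 and 796 CPM at ZT20, which overlapped. The DRF wave was 0.59 ± 0.28 (SE, adjusted p = 0.383), and the difference between the regimens in peak to trough was -1.27 ± 0.41 (SE, Wald adjusted p = 0.117). At ZT8 Pgd was higher under DRF by 1.70 ± 0.39 (SE, adjusted p = 0.00137) and at ZT12 by 1.33 ± 0.39 (SE, adjusted p = 0.0126). At ZT20 the difference was -0.46 ± 0.39 (SE, adjusted p = 0.54). Without replicate 2 or 4 the NRF rhythm of Pgd missed the threshold (adjusted p = 0.0789 and 0.077), as did the ZT8 difference (0.0635 and 0.0679). The ZT12 difference missed it without replicate 1 or 2 (0.229 and 0.0528).

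Rpia, which makes ribose 5-phosphate (ENSMUSG00000053604, chromosome 6, 70765720 to 70792232), was the gene that kept a rhythm under both regimens. At ZT4 the mice had 88.2, 78.9, 101 and 93.1 CPM under DRF and 38.6, 37.2, 44.9 and 26.1 CPM under NRF. At ZT20 they had 25, 32.6, 32.6 and 28.6 CPM under DRF and 72.2, 79.1, 74.7 and 66.2 CPM under NRF. The regimens did not overlap at either time, with DRF above at ZT4 and below at ZT20. The wave was 2.58-fold under NRF, with a peak at 20.9 ± 0.60 h (SE, adjusted p = 3.7e-05), and 2.71-fold under DRF, with a peak at 7.02 ± 0.54 h (SE, adjusted p = 0.00342). The fitted peaks lay 10.2 h apart, with a 95% interval of 8.54 to 11.8 h, which does not contain 12 h. This interval depends on the shape of the cosine, and the highest group means were at ZT4 under DRF (90.2 CPM) and ZT20 under NRF (73 CPM). The limma F test at matched feeding time, with a shift of 12 h, did not call Rpia (adjusted p = 0.224). Of the 2415 genes rhythmic under both regimens (9.31% of all genes), 80.7% had peaks 8 h or more apart, with a median of 10.3 h, so Rpia moved as most of them did. The peak to trough difference changed by 0.08 ± 0.31 (SE, Wald adjusted p = 0.988). Rpia differed at all 7 time points, higher under DRF at ZT4, ZT8 and ZT12 and lower at ZT0, ZT16, ZT20 and ZT24, and its mean level over the day did not pass the test. Its DRF rhythm missed the threshold without replicate 3 or 4 (adjusted p = 0.102 and 0.148). So did its differences at ZT0 without replicate 2 (0.0545), at ZT8 without replicate 3 or 4 (0.17 and 0.128), at ZT16 without replicate 2 or 4 (0.109 and 0.0836) and at ZT24 without replicate 2 or 3 (0.0628 and 0.0842).

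Tkt, which exchanges carbon units among sugar phosphates (ENSMUSG00000021957, chromosome 14, 30548359 to 30574720), varied widely between NRF mice. At ZT8 they had 2183, 415, 4742 and 1243 CPM, while DRF mice had 2061, 3446, 4319 and 4556 CPM. The ranges overlapped, and the difference of 1.18 ± 0.45 (SE) did not pass (adjusted p = 0.0659). At ZT16 the levels were 4525, 4359, 4713 and 5167 CPM under DRF and 2359, 3739, 2376 and 3875 CPM under NRF. The regimens did not overlap, but the difference of 0.64 ± 0.45 (SE) did not pass either (limma adjusted p = 0.442). That SE comes from the spread of all 14 groups, while at ZT16 the SD was 0.105 under DRF and 0.396 under NRF (log2). The mean over the day was higher under DRF by 0.46 ± 0.17 (SE, adjusted p = 0.0495).

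Taldo1, the transaldolase that works beside Tkt (ENSMUSG00000025503, chromosome 7, 141392199 to 141402968), was steadier. Its levels at ZT4 were 1088, 952, 1212 and 1239 CPM under DRF and 713, 824, 502 and 553 CPM under NRF. All DRF mice were above all NRF mice, by 0.81 ± 0.21 (SE, adjusted p = 0.00379), a call that was lost without replicate 3 or 4 (adjusted p = 0.0717 and 0.0724). The DRF mean was above the NRF mean at all 7 time points, with a difference at ZT0 of 0.03 ± 0.21 (SE) that turned to -0.15 without replicate 1 and -0.007 without replicate 3, and the mean over the day was higher by 0.41 ± 0.09 (SE, adjusted p = 0.000294). Its wave was 0.44 ± 0.18 (SE) under NRF and 0.15 ± 0.16 (SE) under DRF, neither past the threshold (adjusted p = 0.703 and 1).

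Me1, the cytosolic malic enzyme (ENSMUSG00000032418, chromosome 9, 86581371 to 86695953), had the largest change in mean level, 0.93 ± 0.24 (SE, adjusted p = 0.00292). At ZT8 its levels were 1696, 275, 4754 and 631 CPM under NRF and 3030, 3787, 5519 and 7215 CPM under DRF. All but 1 of the NRF mice were below all DRF mice, and the difference was 2.09 ± 0.63 (SE, adjusted p = 0.0163). Without replicate 2 or replicate 4 it missed the threshold (adjusted p = 0.209 and 0.221). At ZT4, 6658, 5561, 8627 and 7506 CPM under DRF lay above 3668, 5484, 613 and 1801 CPM under NRF without overlap. The fitted difference of 1.69 ± 0.63 (SE, from the spread of all groups) just missed the threshold (adjusted p = 0.0517). At ZT20 the NRF mice were all high, with 6195, 5643, 5416 and 5556 CPM, and DRF mice were spread around them with 4105, 6252, 7761 and 3029 CPM. The NRF wave was 1.89 ± 0.49 (SE, a 3.71-fold change) with a peak at 20.3 ± 0.94 h, and it passed the limma F test but not the combined test (adjusted p = 0.482). Under DRF the wave was 0.30 ± 0.45 (SE). Exons of Me1 share 30 of 3848 bases with the antisense gene A330041J22Rik, which had a mean of 1.40 CPM against 4697 CPM for Me1.

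Idh1, the other cytosolic NADPH maker here (ENSMUSG00000025950, chromosome 1, 65158616 to 65186500), did not follow Me1. Its highest group mean was 502 CPM under NRF, at ZT0, and 543 CPM under DRF, at ZT12, and none of its tests passed with the main scaling and all libraries. At ZT12 its levels were 457, 529, 499 and 687 CPM under DRF and 362, 395, 537 and 437 CPM under NRF, an overlapping pair of groups with a difference of 0.33 ± 0.17 (SE, adjusted p = 0.221). Its fitted waves were 0.29 ± 0.14 (SE) under NRF and 0.21 ± 0.14 (SE) under DRF, and the NRF rhythm passed without replicate 3 (adjusted p = 0.0263). Its peak time difference passed with plain library totals (adjusted p = 0.0198) and without the ZT24 libraries (0.0461), replicate 3 (0.0217) or the 2 DRF libraries of high epithelial markers (0.0109). Without those 2 libraries its rhythm difference at matched clock time passed as well (0.0471).

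Slc25a1, the mitochondrial citrate exporter (ENSMUSG00000003528, chromosome 16, 17925223 to 17928219), showed its widest gap at ZT4. Levels there were 3424, 2522, 4232 and 3307 CPM under DRF and 1162, 2060, 494 and 789 CPM under NRF. The groups did not overlap, and the difference was 1.75 ± 0.41 (SE, adjusted p = 0.00162). At ZT8 it was 1.2 ± 0.41 (SE, adjusted p = 0.0357), and that call was lost without replicate 2 or 4 (adjusted p = 0.335 and 0.331). From ZT12 to ZT24 no difference passed. The mean over the day was higher by 0.58 ± 0.16 (SE, adjusted p = 0.00612), and without replicate 1 it missed the threshold (adjusted p = 0.0667).

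By time point, the calls of a higher level under DRF fell at ZT4, ZT8, ZT12 and ZT16, and no test compared time points. The DRF mean was the higher at 7 of 7 time points for G6pdx and Taldo1, down to 2 of 7 for Pgls. At ZT4, 4 of the 9 genes were called higher under DRF and none lower, where 19.5% of all genes were called and 10.4% were called higher. At ZT8 it was 5 of 9, all higher, against 16.5% of all genes called and 9.00% higher, and at ZT12 3 of 9, all higher, against 16.1% and 8.76%. At ZT16 there were 2 of 9 calls, G6pdx higher and Rpia lower, against 9.97% of all genes, 5.00% being higher and 4.97% lower. At ZT0, ZT20 and ZT24 the only gene called was Rpia, lower under DRF, against 10.5%, 13.1% and 11.3% of all genes called and 5.06%, 6.41% and 5.24% called lower. By the ranges of the 4 mice, 6 of 9 genes were higher without overlap at ZT4, where 24.4% of all genes did not overlap, and none at ZT0, ZT8 or ZT24, where 9.89%, 11.8% and 15.5% did not. Without DRF replicate 1 at ZT8, a comparison added after seeing the data, 3 of 9 (G6pdx, Pgd and Idh1) were higher without overlap at that time, where 20.5% of all genes then did not overlap. At ZT12, 3 of 9 were higher without overlap, against 21.7%. At ZT16, 6 of 9 were higher and 1 lower, against 18.9%, and at ZT20 1 of 9 was lower, against 19.7%. The 63 comparisons of gene and time point gave 17 calls. Without the 2 DRF libraries of high epithelial markers there were 22, with Pgd (adjusted p = 0.0494) and Me1 (0.0432) added at ZT4, Tkt (0.0265) and Taldo1 (0.00645) at ZT8 and Taldo1 (0.0357) at ZT16. Without replicate 2 or replicate 4 there were 9. The share of all genes called at single time points in these settings is not given here, so the 22 and 9 calls are not read as particular to the 9 genes. In mean level, 21.7% of all genes were called with all libraries and 28.9% without those 2 DRF libraries. Without replicate 2 or replicate 4 it was 14.9% and 17.1%. Of the 56 libraries, NRF replicate 2 at ZT8 had the highest sums of macrophage, lymphocyte and mesothelium markers and ranked 4 in adipocyte markers, and NRF replicate 4 at ZT8 had the highest sums of adipocyte and skeletal muscle markers. The part of these markers in the calls was not tested.

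**Figure D3:**
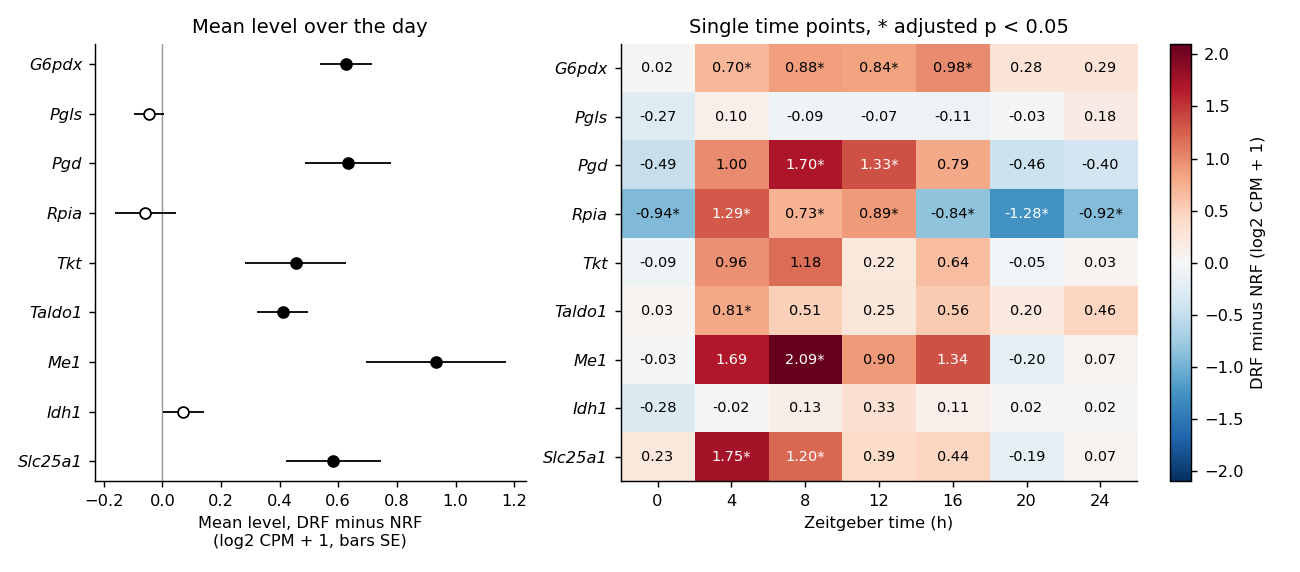
Left, difference in mean level over the day (DRF minus NRF, log2 CPM + 1) with its standard error, filled where the adjusted p was under 0.05. Right, the same difference at each zeitgeber time (h), red where DRF was higher, blue where it was lower and starred where the adjusted p was under 0.05. G6pdx is starred from ZT4 to ZT16, Rpia changes sign over the day, and Idh1 and Pgls have no star.

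The rhythm itself was then compared between the regimens at the same clock time and at the same time relative to feeding. At matched clock time the cosine and sine terms differed for 5 of 9 genes (limma F test), where 36.0% of all genes and 53.4% of those with at least 1 CPM differed. The count lies near the share of genes with at least 1 CPM. The 5 genes were Rpia (adjusted p = 7.55e-10), Pgd (1.65e-05), G6pdx (0.0144), Slc25a1 (0.0216) and Me1 (0.0406). Without the 2 DRF libraries of high epithelial markers it was 6 of 9, Idh1 being added (0.0471), where 40.6% of all genes then differed. The Me1 call was lost with any replicate number left out (adjusted p = 0.0505 to 0.336), without the NRF library with liver markers (0.0538), without the ZT24 libraries (0.105) and with 12-h terms added to the model (0.0727). The Slc25a1 call was lost without replicate 2 or 4 (0.0663 and 0.254), and the G6pdx call without replicate 4 (0.188). With the DRF terms moved by 12 h, so that the regimens were set side by side by their inverted feeding time, 1 of 9 genes still differed (Pgd, adjusted p = 0.0389). Of all genes 14.9% differed, and 23.0% of those with at least 1 CPM. The Pgd call was lost without the 2 DRF libraries of high epithelial markers (adjusted p = 0.0532) and with any replicate number left out (adjusted p = 0.071 to 0.288). Rpia, whose rhythm differed most at matched clock time, gave an adjusted p of 0.224 at matched feeding time. The Wald test of peak time called 3 of 9 genes (Pgd, Slc25a1 and Rpia), where 42.5% of all genes and 57.3% of those with at least 1 CPM were called. It called 4 of 9 without the 2 DRF libraries (Idh1 added, adjusted p = 0.0109), where 46.7% of all genes were then called. It is read for Rpia only, since the other genes had no called rhythm under DRF.

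The spread between mice of a group was wide for Me1, Tkt, Slc25a1 and Pgd, and wider under NRF than under DRF. Within groups, the SD of Me1 on the log2(CPM + 1) scale was 1.17 under NRF and 0.48 under DRF (28 mice each), and Tkt had 0.81 and 0.36, Slc25a1 0.73 and 0.39, and Pgd 0.71 and 0.35. The median over the 14303 genes with at least 1 CPM was 0.18 under NRF and 0.20 under DRF, and 99.8% of those genes had a smaller SD than Me1 under NRF. For G6pdx it was 0.36 under NRF and 0.28 under DRF. It was 0.35 and 0.32 for Rpia, 0.29 and 0.30 for Taldo1 and 0.17 and 0.18 for Pgls, while for Idh1 it was 0.21 under NRF and 0.29 under DRF. No test of the difference in spread was made. The standard errors of waves and differences use 1 spread per gene for both regimens, so they do not show this difference.

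The mice lowest in Me1 were also below their group means in G6pdx, Pgd, Tkt, Taldo1 and Slc25a1. The mice farthest below their group in Me1 were NRF replicate 2 at ZT8, replicate 1 at ZT12, replicate 3 at ZT4 and replicate 1 at ZT0, by -1.98, -1.97, -1.82 and -1.75 (log2). In the same mice Pgd deviated by -0.96, -1.2, -1.19 and -1.19, and Slc25a1 by -1.44, -1.02, -0.99 and -1.11. These 4 mice had adipocyte marker sums of 86838, 90322, 88257 and 71884 TPM, all above the NRF median of 70653 TPM, and their mesothelium sums were 563, 288, 548 and 553 TPM against an NRF median of 408 TPM. Their macrophage sums were 3354, 1457, 1889 and 1323 TPM against an NRF median of 1531 TPM. Their neutrophil sums were 18.2, 19.4, 15.9 and 14.5 TPM against an NRF median of 12 TPM. Their red cell sums were 2882, 1747, 1788 and 980 TPM against an NRF median of 1119 TPM. NRF replicate 2 at ZT8 also had the highest lymphocyte sum of the 56 libraries, 24.8 TPM against an NRF median of 8.55 TPM. NRF replicate 4 at ZT8, which deviated by -0.79 in Me1, had the highest adipocyte sum, 90389 TPM, and the highest skeletal muscle sum, 968 TPM against an NRF median of 72.2 TPM. The 3 NRF mice farthest above their groups in Me1 (replicate 3 at ZT8, replicate 2 at ZT4 and replicate 3 at ZT0, by 2.13, 1.34 and 1.18) had adipocyte sums of 72381, 69055 and 65608 TPM, mesothelium sums of 298, 563 and 414 TPM and macrophage sums of 1485, 2452 and 1543 TPM. In these 3 mice the neutrophil sums were 15.2, 10.8 and 6.63 TPM and the red cell sums 1475, 741 and 816 TPM. The part of these markers in the deviations was not tested. The farthest above, NRF replicate 3 at ZT8, deviated by 1.32 for Pgd and 1.64 for Tkt. Over the 56 libraries, the deviations from the group means correlated with Pearson's r of 0.70 to 0.97 in the 15 pairs among G6pdx, Pgd, Tkt, Taldo1, Me1 and Slc25a1. In the 21 pairs with Idh1, Pgls or Rpia, r was -0.04 to 0.59. Within regimens these 21 pairs had r of -0.35 to 0.44 over the 28 NRF libraries and 0.20 to 0.86 over the 28 DRF libraries. Under DRF, Pgls had r of 0.61 (Me1) to 0.86 (Taldo1) with the 6 genes, against -0.01 to 0.29 under NRF. The pair Me1 and Pgd had r = 0.97, with 0.98 over the 28 NRF and 0.93 over the 28 DRF libraries. These are descriptions, since the libraries of a pair are the same and share depth and tissue make-up.

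**Figure D4:**
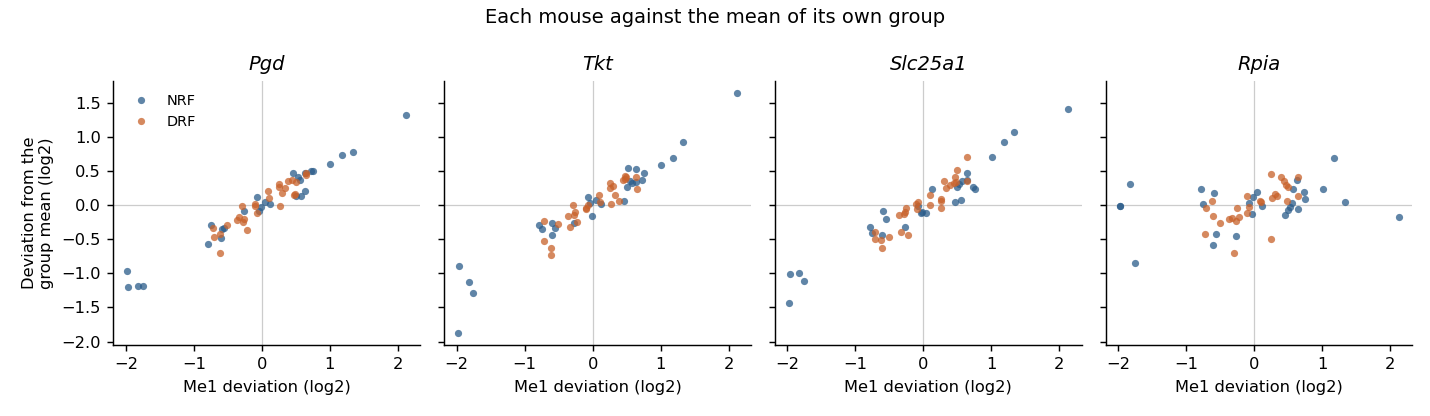
Deviation of each mouse from the mean of its own group (log2 CPM + 1) for Pgd, Tkt, Slc25a1 and Rpia (vertical axes) against Me1 (horizontal axis). Each point is 1 of 56 mice, blue for NRF and orange for DRF. The first 3 genes follow Me1 along a line, with 4 NRF mice far below their groups, and Rpia scatters.

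The genes whose profiles over the 14 group means were most like those of G6pdx, Pgd and Me1 were found among all genes with a mean of at least 5 CPM. For Pgd they included Pmvk (Pearson's r = 0.986) and Idi1 (0.981). Pmvk and Idi1 encode enzymes of the mevalonate route to cholesterol, which spends NADPH. For Me1 they were Pdhb (0.986), Pkm (0.984) and Acaca (0.977), which encode a subunit of pyruvate dehydrogenase, pyruvate kinase and acetyl-CoA carboxylase. Tkt ranked 5 for Me1, with r = 0.975. For G6pdx they were Psmd14 (0.977), Tmem135 (0.974) and Tpmt (0.970), while Me1 ranked 96 (0.914) and Pgd 341 (0.849). Rpia was far from all 3, with r = 0.23 to G6pdx, 0.58 to Pgd and 0.40 to Me1.

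Related genes were described by 6 lists. Of the 11 other pentose phosphate genes measured, 2 were higher and 2 lower in mean level under DRF, with a median difference of -0.01 (log2). Rpe, the epimerase that works beside Rpia, was higher by 0.26 ± 0.07 (SE, adjusted p = 0.00321). It passed the rhythm test under NRF and not under DRF, but its difference in wave size was not called (Wald adjusted p = 0.116). H6pd, the glucose-6-phosphate dehydrogenase of the endoplasmic reticulum, had waves of 0.57 ± 0.10 under NRF and 0.88 ± 0.11 under DRF (SE), both past the threshold. The H6pd peaks were at 12.1 and 19.5 h, its difference in wave size was not called (Wald adjusted p = 0.376) and its mean difference was 0.01 ± 0.05 (SE). Prps1l3, which may share reads with its near-identical copy Prps1, passed under NRF. Of the 14 other NADPH and NADP genes, 4 were higher and 1 lower, with a median of 0.03. Among them Aldh1l1, a folate enzyme that makes NADPH, was higher by 0.40 ± 0.09 (SE, adjusted p = 0.000808). Mthfd1l, a mitochondrial folate enzyme, and Nadk2, the mitochondrial NAD kinase, were rhythmic under both regimens, with peaks 2.24 h and 9.77 h apart.

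In the citrate-pyruvate shuttle and its carriers, 9 of 12 genes were higher in mean level and none lower, with a median of 0.35. Acly, which splits exported citrate into acetyl-CoA, had a wave of 3.38 ± 0.62 (SE) under NRF and 1.36 ± 0.57 (SE) under DRF. Its difference in wave size was not called (Wald adjusted p = 0.292), and it was higher in mean level by 0.90 ± 0.30 (SE, limma adjusted p = 0.0248). Mpc1, a subunit of the mitochondrial pyruvate carrier, was higher by 0.66 ± 0.13 (SE, adjusted p = 0.000144). It passed the rhythm test under NRF and not under DRF, but its difference in wave size was not called (Wald adjusted p = 0.102). Slc16a1, a lactate and pyruvate transporter of the cell membrane, was rhythmic under both with peaks 11.9 h apart. Of the 10 genes of fatty acid synthesis, a route that spends NADPH though not at each step, 6 were higher and 1 lower, with a median of 0.45. Scd2, a stearoyl-CoA desaturase, had waves of 4.03 ± 0.43 under NRF and 2.41 ± 0.40 under DRF (SE). Its difference in wave size was not called (Wald adjusted p = 0.186), and it was higher in mean level by 1.32 ± 0.21 (SE, limma adjusted p = 3.25e-06). Fads2, a fatty acid desaturase, was higher by 0.38 ± 0.09 (SE, adjusted p = 0.00162). Acacb, the mitochondrial acetyl-CoA carboxylase, passed the rhythm test under NRF only, with waves of 2.01 ± 0.28 under NRF and 0.52 ± 0.27 under DRF (SE). For Acacb the difference in wave size was called (Wald adjusted p = 0.0331).

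Of the 15 glutathione, thioredoxin and NRF2-responsive genes, 7 were higher and none lower, with a median of 0.16. Prdx6, a peroxiredoxin, was higher by 0.59 ± 0.09 (SE, adjusted p = 2.38e-06), and Srxn1, which repairs peroxiredoxins, by 0.44 ± 0.06 (SE, adjusted p = 6.21e-07). Txnrd1, the cytosolic thioredoxin reductase, which uses NADPH, was rhythmic under both regimens with peaks 11.6 h apart. Of the 19 regulators, 3 were higher and 4 lower in mean level, with a median of -0.02. Of these 19, 14 were rhythmic under NRF, where 25.5% of all genes and 41.2% of those with at least 1 CPM were, and 7 under DRF, where 14.7% and 23.8% were. Mlxipl, which encodes the carbohydrate-responsive factor ChREBP, peaked at 19.5 h under NRF and 11.9 h under DRF and did not differ in mean level by the test (0.09 ± 0.15 SE, adjusted p = 0.724). Insig1, which holds back the activation of sterol regulatory factors, was higher by 0.64 ± 0.15 (SE, adjusted p = 0.00103), and Thrsp, a lipogenic cofactor, by 0.61 ± 0.18 (SE, adjusted p = 0.00892). All lists stand beside the 21.7% of all genes called in mean level, and no test compared a list with other genes.

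**Figure D5:**
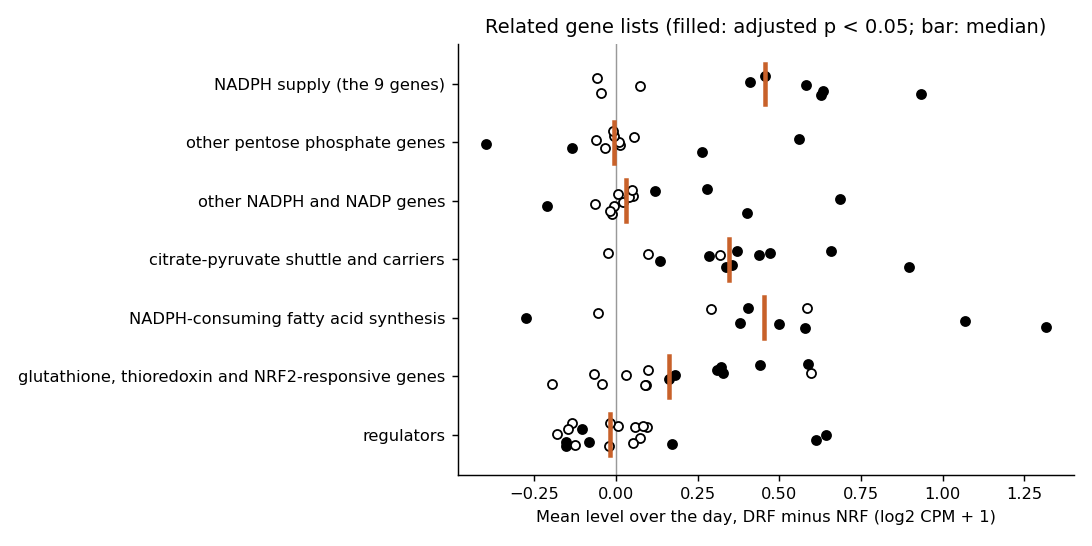
Difference in mean level over the day (DRF minus NRF, log2 CPM + 1) for the 9 genes and for each related list, 1 point a gene, filled where the adjusted p was under 0.05. Vertical bars are medians, which lie near 0 for the other pentose phosphate genes and the regulators and at 0.35 and 0.45 for the citrate shuttle and fatty acid synthesis.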

How the data were processed

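PolyA RNA of VAT was sequenced from 56 mice, 1 library each. Per the submitters' processing notes, HISAT2 2.0.5, featureCounts 1.5.0-p3 and the mm10 build were used, and strandedness is not given in the sources used here. The deposited values are named TPM by the authors, but they behave as a score: the deposited score is log2(CPM + 1), so a log2 value, over the length of each gene's exons, brought to a like total in every library. This was inverted with GENCODE exon lengths, and 99.9993% of 1261534 low values came out within 0.02 of a whole read. Of the 25939 deposited genes, 25938 were analysed, 890 of them with a length taken from the values. Scd1 was not resolved and is not analysed here. CPM used the effective library size held in the deposited values, and TPM was recomputed from CPM and length.

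For each regimen, 24-h rhythms were tested by joining the p-values of JTK_CYCLE and Lomb-Scargle by Fisher's method, coded anew in Python 3.11.15 (numpy 2.4.6, scipy 1.17.1). Waves, amplitude and peak time came from the CircaCompare model with Wald tests. The mean level, the rhythm differences and single time points were tested on log2(CPM + 1) with limma 3.58.1 in R 4.3.3 with an intensity trend. The CircaCompare and limma fits used all 56 libraries, with 1 spread per gene shared by both regimens and all groups. Their standard errors and p-values therefore do not reflect the spread of a single group. All p-values were adjusted by Benjamini-Hochberg over all genes, with a threshold of 0.05. The code was tested on simulated data. All 9 genes were named, and from each list the 3 genes past the rhythm threshold under at least 1 regimen with the largest fitted peak to trough difference. For G6pdx, Pgd and Me1, the 3 genes with the highest Pearson's r over group means were taken, 1 of which is not reported here. The members, lists and markers were chosen with earlier results of these data known. Each replicate number marks different mice, so the main fits have no block. None of the 84 pairs of libraries within groups agreed within sampling noise. Alternatives covered scaling, pseudocount, low values, left-out libraries and replicates, the replicate block, the deposited values, linear CPM, 12-h terms and other rhythm tests. Libraries held 31755179 to 41963739 reads, and the lowest value of any of the 9 genes was 822 reads (Rpia). Intervals cover counting error and spread between mice only.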

Additional observations from a re-analysis of the deposited data

Results flagged for a closer look

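Of the 126 groups of 4 mice (9 genes in 14 groups), 1 held a mouse set off from the others of its group by Dixon's test at 95%. Slc25a1 at ZT16 under DRF was 2363 CPM in replicate 4 against 2038 to 2072 CPM in the other mice. On the log2(CPM + 1) scale the gap was 0.889 of the range of the group. Chance sets off about 1 in 20 groups. All 4 mice of that group were above all NRF mice at ZT16.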

How the results depend on the processing

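Of the results on single genes under the alternatives, 1414 kept their direction, where they have one, and their side of the threshold, 58 were no longer past it and 32 came past it. Another 44 changed sign, in 24 differences. None of these was past the threshold in either setting, and the lowest adjusted p was 0.615 as reported and 0.623 under the alternatives. Counts over the 9 genes moved as follows. The rhythm under NRF went from 3 genes to 6 with the limma F test (33.7% of all genes). The rhythm under DRF went from 1 to 2 with plain library totals (14.9%). The NRF count was 2 without the ZT24 libraries (25.3% of all genes) and 2 with the deposited values (24.5%). G6pdx was the gene lost (adjusted p = 0.0676 and 0.0583). The mean level of Tkt missed the threshold with plain library totals (adjusted p = 0.0535). Peak time went from 3 to 5 with plain library totals (42.1% of all genes). The rhythm difference at matched feeding time went from 1 to 0 without the ZT24 libraries (13.3% of all genes). It also went to 0 without the 2 DRF libraries that stand apart (18.9%). The cause was not tested. With 1 replicate number left out, the counts ran from 1 to 4 for the NRF rhythm (15.3% to 20.1% of all genes) and 0 to 1 for the DRF rhythm (7.38% to 9.19%). They ran from 1 to 4 for peak time (38.1% to 39.7%), 2 to 4 for matched clock time (28.4% to 31.9%) and 0 to 0 for matched feeding time (5.49% to 12.5%). The mean level had 4 to 5 (14.7% to 17.7%) and single time points 9 to 19. The amplitude count was 0 in each (0.308% to 1.02%). All these shares of all genes lay below those of the main fits, so the calls fell beyond the 9 genes as well. Without the NRF library with liver markers, chosen after seeing the data, the NRF rhythm had 2 genes (25.1% of all genes) and matched clock time 4 (35.6%). Deviations of same-numbered mice in different groups had a median correlation of 0.033, with 37.6% of pairs over 0.1. For mice of other numbers these were -0.010 and 29.3%. A median near 0 cannot exclude something shared by mice of 1 number, so whether the numbers pair the mice is not settled. With the replicate block the counts were 0 for amplitude, 3 for peak time, 5 for matched clock time, 1 for matched feeding time, 6 for the mean level and 18 for single time points, the added call being Me1 at ZT4 (adjusted p = 0.0495). Scaling moved the median difference of all genes from -0.0013 to -0.0489 with plain totals and 0.0043 with median ratios, both under 0.1. Each value of the 9 genes rests on at least 822 reads, and each group on 4 mice. Which of these limits the precision more was not tested.

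The differences that changed sign (DRF minus NRF, log2) are given here. With 1 replicate number left out, the difference in peak to trough ran from -0.20 to 0.13 for Idh1, -0.005 to 0.21 for Pgls and -0.13 to 0.40 for Rpia and that in mean level from -0.11 to 0.034 for Rpia. At ZT0 the difference then ran from -0.19 to 0.21 for G6pdx, -0.61 to 0.29 for Tkt, -0.15 to 0.26 for Taldo1, -0.70 to 0.35 for Me1 and -0.17 to 0.50 for Slc25a1. For ZT4 the range was -0.11 to 0.058 for Idh1. For ZT8 the range was -0.14 to 0.39 for Idh1. At ZT12 the difference then ran from -0.22 to 0.48 for Tkt, -0.12 to 0.60 for Slc25a1 and -0.16 to 0.019 for Pgls. For ZT20 the range was -0.15 to 0.035 for Tkt, -0.44 to 0.024 for Me1, -0.11 to 0.15 for Idh1 and -0.084 to 0.060 for Pgls. At ZT24 the difference then ran from -0.18 to 0.24 for Tkt, -0.29 to 0.45 for Me1, -0.072 to 0.068 for Idh1 and -0.075 to 0.38 for Slc25a1. Plain library totals gave -0.058 for Tkt (ZT24), -0.022 for Me1 (ZT24), -0.002 for Idh1 (ZT20), -0.068 for Idh1 (ZT24), -0.026 for Slc25a1 (ZT24) and -0.079 for Pgls (ZT4). Without the 2 DRF libraries that stand apart the values were 0.077 for Idh1 (peak to trough), 0.12 for Tkt (ZT0), 0.17 for Me1 (ZT0) and 0.014 for Pgls (ZT8). The deposited values gave 0.42 for Idh1 (peak to trough) on their own scale.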
